A study of Homo sapiens with 4 samples.

Results

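A panel of 10 genes known as markers of the crypt base, the stem cell zone of the intestinal epithelium, was followed across a pair of modified colorectal cancer cell lines and their vector controls. They were chosen by symbol as OLFM4, LGR5, ASCL2, SMOC2, PROM1, SOX9, RNF43, CD44, LRIG1 and MSI1, and every probe set annotated to exactly 1 of these symbols was read. All 10 were read, by 29 of the 54675 probe sets on the array, and they were 10 of the 19775 genes named there. One array was hybridised for each of 4 samples. The samples HCT116-CDX1 and HCT116-Vec came from HCT116, a line grown from a human colorectal carcinoma, and LS174T-siCDX1 and LS174T-siVec from LS174T, a human colon adenocarcinoma line known for making mucin. From these names the samples were taken as CDX1 introduced into HCT116 with its vector control, and CDX1 lowered in LS174T with its vector control; the construct, the promoter that drives it, the time of treatment and whether a sample was 1 clone or a pool are not stated in the labels. The homeobox factor CDX1 acts in the intestinal epithelium, and the title of the series names it as a regulator of KRT20, a keratin of differentiated intestinal cells.

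Crypt base stem cells divide at the bottom of the intestinal gland and renew the epithelium above them. Wnt signals, amplified by R-spondins acting through LGR receptors and limited by the ubiquitin ligases RNF43 and ZNRF3, keep them in that state, and the transcription factors ASCL2 and SOX9 act within it. In colorectal cancer cells the same genes are often read as signs of a stem-like state, although a cell line in culture has no crypt.

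Levels are RMA values in log2 units, and the medians of the arrays ran from 7.04 to 7.06. Where a gene had several probe sets, the one with the highest mean stood for it. It was taken as measured in a comparison when the brighter of the arrays was at 6 or more, and a measured gene or probe set "rose", "fell" or "changed" where its arrays differed at least 2-fold, which is 1 on the log2 scale. With 1 array per sample, a difference between 2 arrays has neither a replicate behind it nor a p-value, and precision is limited by the small number of arrays. Fewer cells of a type and less RNA per cell cannot be told apart in such samples. The 6 epithelial markers, among them EPCAM and KRT18, were at or above 6 on each array, with medians from 11.9 to 12.8. In the LS174T pair all 6 of them lay below 0, with a median of -0.42, and 2 fell, the keratin genes KRT8 at -1.49 and KRT19 at -1.69. Of all genes measured in that pair, 51.2% lay below 0 and 1.85% changed. LUM, the proteoglycan of fibroblasts, was at 4.25 to 4.34, and the monocyte receptor CD14 at 5.66 to 5.84. Other markers of such cells read higher, the fibroblast marker COL1A1 at 8.86 to 9.14 and the leukocyte marker CD3E at 7.76 to 8.07. Of 16 fibroblast, leukocyte and endothelial markers, 11 were at or above 6 on each HCT116 array and 12 on each LS174T array. A level of 6 or more therefore does not by itself show that a gene was expressed. This limit also holds for members at such levels, among them SMOC2 and MSI1, and LGR5 and ASCL2 in HCT116. The lysozyme gene LYZ, which Paneth cells also express, was at 11.74 in LS174T-siCDX1 and 11.25 in LS174T-siVec, and under 6 in HCT116; the part of such cells in the results was not tested. CDX1, read by 1 probe set, was at 8.24 on the array labelled HCT116-CDX1 and at 8.21 on HCT116-Vec, so that this probe set gave no sign of raised CDX1. Directions drawn for the HCT116 pair therefore rest on the label, and the labels do not say where the probe set lies relative to the construct. In LS174T, CDX1 was at 9.06 in LS174T-siCDX1 and at 10.46 in LS174T-siVec.

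The sequences around the annotated starts of OLFM4 and CD44 are shown because these members had the largest differences within the LS174T pair. They run from 250 bases before the start to 50 after it, are taken from RefSeq on GRCh38.p14, and read 5′ to 3′ on the strand of the gene. The OLFM4 window is chr13:53028563-53028862 on the + strand and the CD44 window is chr11:35138921-35139220 on the + strand. Capitals mark a match to a searched motif on either strand: TTTATG or TTTATT for CDX factors, CTTTGAA or CTTTGAT for TCF/LEF factors of the Wnt pathway, and CAGCTG for ASCL factors.
OLFM4: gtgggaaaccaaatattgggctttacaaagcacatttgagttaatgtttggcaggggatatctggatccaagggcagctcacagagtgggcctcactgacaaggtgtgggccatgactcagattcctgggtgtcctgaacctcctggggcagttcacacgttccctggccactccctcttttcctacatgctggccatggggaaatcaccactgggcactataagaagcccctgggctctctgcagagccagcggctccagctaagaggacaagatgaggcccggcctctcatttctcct
CD44: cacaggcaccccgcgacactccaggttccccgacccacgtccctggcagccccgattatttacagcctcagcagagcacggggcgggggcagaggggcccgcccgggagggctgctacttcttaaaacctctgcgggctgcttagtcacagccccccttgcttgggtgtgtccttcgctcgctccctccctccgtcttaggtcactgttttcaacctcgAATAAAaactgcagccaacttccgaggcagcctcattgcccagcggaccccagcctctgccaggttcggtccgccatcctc
The CD44 window held 1 CDX match, AATAAA, from 31 to 26 bases before the start, where TATA boxes are commonly found, and the OLFM4 window held none of the motifs. Of 35116 such windows of human genes, 24.3% held a CDX match, 6.86% a TCF/LEF match and 17.9% an ASCL match, so that a match is a common feature. The table of promoters held 13 windows for 6 of the members, and PROM1 and RNF43 also had a CDX match in at least 1 of their windows. A match in this window is a description of its letters, and binding was not measured.

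OLFM4 stood apart from the other members within the LS174T pair. OLFM4 encodes olfactomedin 4, a secreted glycoprotein abundant in human crypt base cells. Its level was 11.65 in LS174T-siCDX1 and 6.65 in LS174T-siVec, so that it rose by 5.01 on the log2 scale, or 32.2-fold, which was the 2nd highest difference of 16896 genes measured in that pair. In the HCT116 pair it was at 4.26 on the array labelled HCT116-CDX1 and 3.86 on HCT116-Vec, both under the level of a measured gene. The gene was thus read clearly on 1 array, near the lower limit on LS174T-siVec and below it in HCT116. OLFM4 had 1 probe set, so no second reading of this difference was at hand. Of 9 members measured in the LS174T pair, OLFM4 was the 1 that changed, while 1.85% of all genes measured there changed.

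**Figure D1:**
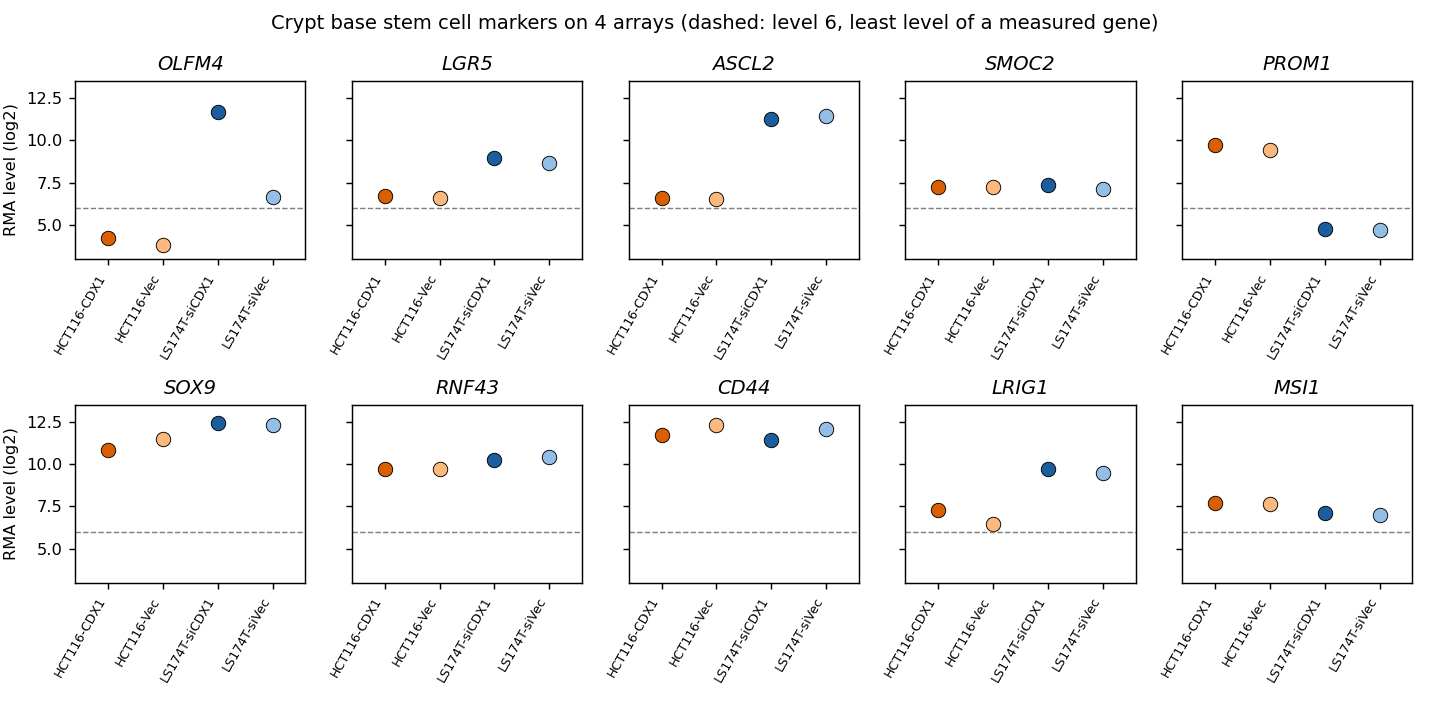
RMA level (log2, vertical axis) of each of the 10 genes on the 4 arrays, 1 point per array, read from the probe set with the highest mean. OLFM4 reached 11.65 in LS174T-siCDX1 against 6.65 in LS174T-siVec, PROM1 lay above 9 in both HCT116 samples and below 5 in both LS174T samples, and LGR5, ASCL2 and LRIG1 lay higher in LS174T.

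The receptor and the transcription factors of the stem cell state did not move with OLFM4 by as much as 2-fold. LGR5, the R-spondin receptor that marks crypt base stem cells, was at 8.94 in LS174T-siCDX1 and 8.69 in LS174T-siVec, a difference of 0.25, and its second probe set was at 10.17 and 9.68 on the same arrays. ASCL2, a basic helix-loop-helix factor that is itself a Wnt target, was at 11.23 in LS174T-siCDX1 and 11.43 in LS174T-siVec, a difference of -0.20. SOX9, an HMG-box factor of crypt base and Paneth cells, was at 12.43 in LS174T-siCDX1 and 12.30 in LS174T-siVec. By their brightest probe sets these 3 genes differed by at most 1.19-fold between the arrays on which OLFM4 differed 32.2-fold, the second probe set of LGR5 differed by 1.40-fold, and that of ASCL2 by -0.46 or 1.37-fold, the opposite way to OLFM4. RNF43, which removes Wnt receptors from the cell surface, was at 10.22 in LS174T-siCDX1 and 10.39 in LS174T-siVec. The largest difference after OLFM4 was that of CD44, at -0.70. LGR5, SMOC2, SOX9, LRIG1 and MSI1 differed by 0.10 to 0.27, and PROM1 was below 6 on both arrays.

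CD44, the hyaluronan receptor of the cell surface and a Wnt target, was lower on both modified arrays. Its brightest probe set was at 11.71 on the array labelled HCT116-CDX1 and at 12.33 on HCT116-Vec, a difference of -0.62, or 1.54-fold. In LS174T it was at 11.39 in LS174T-siCDX1 and at 12.09 in LS174T-siVec, a difference of -0.70, or 1.63-fold. By their names the modifications run in opposite directions for CDX1, while CD44 differed the same way in each. Neither difference reached 2-fold. By size, the difference of CD44 was exceeded by 8.25% of the genes measured in the HCT116 pair and by 3.62% in the LS174T pair.

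The probe sets of CD44 showed the same direction. CD44 had 13 probe sets, of which 12 were measured in both pairs, and all 12 were below 0 in both. In the HCT116 pair their differences ran from -1.03 to -0.16 with a median of -0.80, and in the LS174T pair from -0.98 to -0.17 with a median of -0.76. The 7 probe sets with a mean level over 10 lay closest together, from -0.88 to -0.60 in the HCT116 pair and from -0.98 to -0.70 in the LS174T pair. By the deposited levels each of these 7 was at least 1.5-fold lower on both modified arrays. That held for 0.249% of the 31348 probe sets measured in both pairs. It depended on the normalization. In the HCT116 pair the brightest probe set was at -0.55 after quantile normalization and at -0.51 with a loess trend over level taken out. Both are short of 1.5-fold. In the LS174T pair it was at -0.61 and -0.63 under these settings, still past 1.5-fold. The probe sets read overlapping transcripts of 1 gene, so they are not separate pieces of evidence, and the threshold of 1.5-fold was applied to both pairs together after the values were seen. The remaining probe set was not measured, at 4.35 to 4.82 over the 4 arrays. In the gene list of CD44 splicing and hyaluronan, 0 of 6 measured genes changed in the HCT116 pair, beside 1.89% of all genes. In the LS174T pair 0 of 5 changed, beside 1.85%, so both counts lie near the background. The splicing regulator ESRP1 differed by 0.54 in the HCT116 pair and 0.15 in the LS174T pair.

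**Figure D2:**
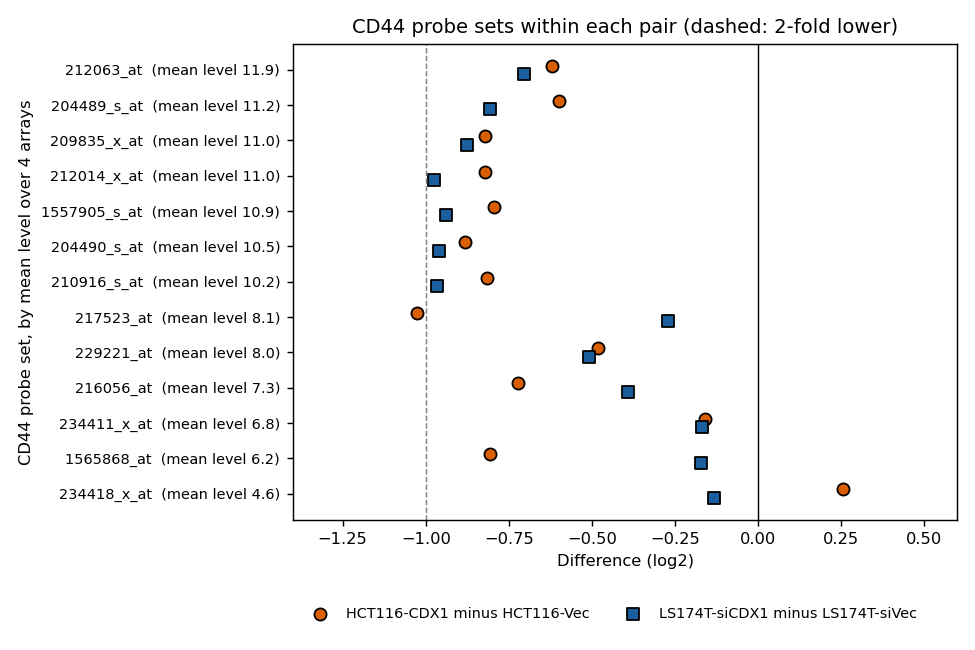
Difference (log2, horizontal axis) of each CD44 probe set within the HCT116 pair (circles) and the LS174T pair (squares), with probe sets ordered by mean level and the dashed line at 2-fold lower. All 12 measured probe sets lie left of 0 in both pairs, and the 7 with the brightest signal lie between -0.98 and -0.60.

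In the HCT116 pair 0 of 9 measured members changed, against 1.89% of the 16914 genes measured. LRIG1, a transmembrane inhibitor of ERBB receptors that marks stem cells in the mouse intestine, had the largest difference. It was at 7.28 on the array labelled HCT116-CDX1 and at 6.48 on HCT116-Vec, a difference of 0.80 or 1.74-fold, and 3.83% of genes measured in the pair differed by more in size. The 2 other measured probe sets of LRIG1 differed by 0.60 and 0.12, so the size of this difference depended on the probe set. SOX9 was at 10.84 on the array labelled HCT116-CDX1 and at 11.48 on HCT116-Vec, a difference of -0.64 or 1.56-fold. Its second probe set was at 10.34 on the array labelled HCT116-CDX1 and at 11.44 on HCT116-Vec, and fell by 1.10. SOX9 therefore changed by 1 of its 2 probe sets and not by the other, though both were lower. Of 23 member probe sets measured in this pair, 2 changed, this one and 1 of CD44, against 1.79% of all named probe sets; in the LS174T pair 1 of 25 did, that of OLFM4, against 1.66%.

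LRIG1, SOX9 and CD44 were the members that differed at least 1.5-fold in the HCT116 pair, 3 of 9 beside 9.48% of all genes measured. By its brightest probe set SOX9, like CD44, was short of 1.5-fold under other normalizations. It was at -0.56 after quantile normalization and at -0.53 with a loess trend over level taken out. LGR5 was at 6.70 on the array labelled HCT116-CDX1 and 6.60 on HCT116-Vec, and ASCL2 at 6.61 and 6.53 on the same arrays, all close to the lower limit of a measured gene. PROM1, which encodes prominin-1 or CD133, a membrane glycoprotein used to enrich tumour-initiating colon cancer cells, was at 9.71 on the array labelled HCT116-CDX1 and 9.43 on HCT116-Vec. RNF43 differed by -0.01 and MSI1, an RNA-binding protein of progenitor cells, by 0.10. The median difference of the 9 measured members was 0.08 in the HCT116 pair and 0.13 in the LS174T pair, beside -0.01 over all measured genes in each.

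**Figure D3:**
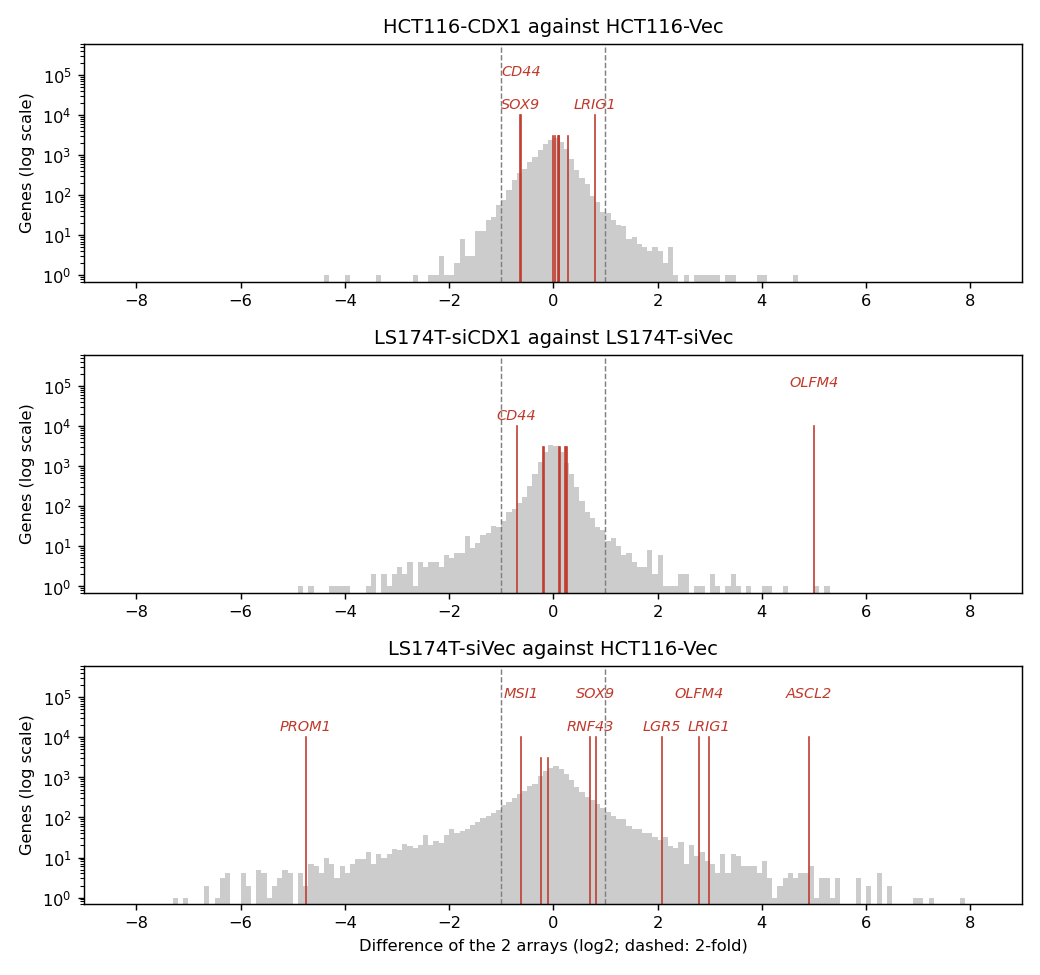
Differences of the deposited levels (log2, horizontal axis) of all measured genes in each comparison as grey bars, with the number of genes on a logarithmic axis, and of the measured members as red lines, named where they differ by 0.5 or more. OLFM4 lies at 5.01 in the LS174T pair, whereas between the vector arrays PROM1 lies at -4.75 and ASCL2 at 4.90.

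The members differed most between the lines. LS174T-siVec was set against HCT116-Vec, and 5 of 10 members changed, against 13.4% of the 17043 genes measured. With levels under 6 set to 6, a setting chosen after the values were seen, 4 of 10 changed, against 12.9% of genes, and OLFM4 was the member lost. ASCL2 was at 11.43 in LS174T-siVec and 6.53 in HCT116-Vec, 29.9-fold higher, and its second probe set was at 7.03 in LS174T-siVec and 3.76 in HCT116-Vec. LGR5 was at 8.69 in LS174T-siVec and 6.60 in HCT116-Vec, 4.26-fold higher. Its second probe set was at 9.68 in LS174T-siVec and 4.94 in HCT116-Vec, at least 12.8-fold higher when the dimmer level is set to 6. Both genes of the Wnt-driven crypt base were thus higher in LS174T by each of their probe sets. LRIG1 was at 9.47 in LS174T-siVec and 6.48 in HCT116-Vec, 7.93-fold higher, but of its other measured probe sets 1 differed by 1.33 and 1 by 0.00. OLFM4 was at 6.65 in LS174T-siVec and 3.86 in HCT116-Vec, at least 1.56-fold higher. PROM1 ran the other way, at 4.68 in LS174T-siVec and 9.43 in HCT116-Vec, at least 10.8-fold lower in LS174T-siVec. By their brightest probe sets ASCL2, LGR5 and LRIG1 thus read high in LS174T-siVec and close to 6 in HCT116-Vec. PROM1 was the only member that read high in HCT116-Vec and below 6 in LS174T-siVec.

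A limma fit of all 4 arrays, with the line and the CDX1 label as terms and 1 residual degree of freedom, tested the difference between LS174T and HCT116 over 17280 genes. It treats the modified array and the vector array of a line as 2 readings of that line, which are not replicate cultures of 1 condition. With Benjamini-Hochberg adjustment over all genes, 5 of 10 members passed an adjusted p of 0.05, against 16.1% of all genes. ASCL2 was higher in LS174T by 4.76 ± 0.15 (SE) with adjusted p = 0.00095 by limma, and LGR5 by 2.16 ± 0.17 with adjusted p = 0.0044. LRIG1 was higher by 2.72 ± 0.29 with limma adjusted p = 0.0092. SOX9 was higher by 1.20 ± 0.19 with limma adjusted p = 0.023, and PROM1 was lower in LS174T, at -4.85 ± 0.17 with adjusted p = 0.00095. Its levels in both LS174T arrays were under 6, so the size and the error of that estimate rest in part on levels not taken as measured. Each of these 5 genes was on 1 side in both LS174T arrays relative to both HCT116 arrays. The same held for OLFM4, RNF43 and MSI1, which did not pass, so it does not set the 5 apart.

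By the deposited levels OLFM4 had the largest estimate among the members, and it did not pass. Both of its HCT116 levels were under 6, so the size and rank of that estimate rest in part on levels not taken as measured. OLFM4 was higher in LS174T by 5.09 ± 1.29 (SE) with limma adjusted p = 0.070, and its 2 LS174T arrays stood 5.01 apart. RNF43 was higher by 0.62 ± 0.15 with limma adjusted p = 0.065, and MSI1 lower at -0.62 ± 0.15 with adjusted p = 0.066; these values do not show that the lines are alike. CD44 differed by -0.28 ± 0.35 and SMOC2, a matricellular protein of stem cells, by -0.01 ± 0.16. SMOC2 was at 7.25, 7.23, 7.34 and 7.13 in HCT116-CDX1 by label, HCT116-Vec, LS174T-siCDX1 and LS174T-siVec, and its second probe set was under 6 on every array. In a fit with the line as its only term and 1 LS174T array left out, SOX9 no longer passed, with limma adjusted p = 0.11 without LS174T-siCDX1 and 0.089 without LS174T-siVec. Such a fit takes the spread of both lines from the line that keeps 2 arrays. For OLFM4 the limma adjusted p was 0.0075 without LS174T-siCDX1 and 0.0020 without LS174T-siVec, where the spread came from the HCT116 arrays with OLFM4 under 6, and 0.22 without HCT116-Vec and 0.20 without HCT116-CDX1, where it came from the LS174T arrays. Where OLFM4 passed among these 4 fits, the difference between its LS174T arrays was therefore left out. MSI1 passed in 1 of these 4 fits, without HCT116-Vec, at limma adjusted p = 0.047. The term for the CDX1 label takes the opposite modifications as 1 effect. It called 0 of 10 members and 0% of the 17280 genes at adjusted p under 0.05 by limma. At an unadjusted limma p under 0.05 there were 518 of the 17280 genes and 0 of 10 members. That is fewer genes than a threshold of 0.05 would be expected to pass with no effect. For 10 members a count of 0 lies near the share of all genes. The estimate of the label term for OLFM4, higher minus lower CDX1 by label, was -2.30 ± 1.29 with limma adjusted p = 0.999. That estimate also takes in the HCT116 pair, where OLFM4 was under 6 on both arrays.

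**Figure D4:**
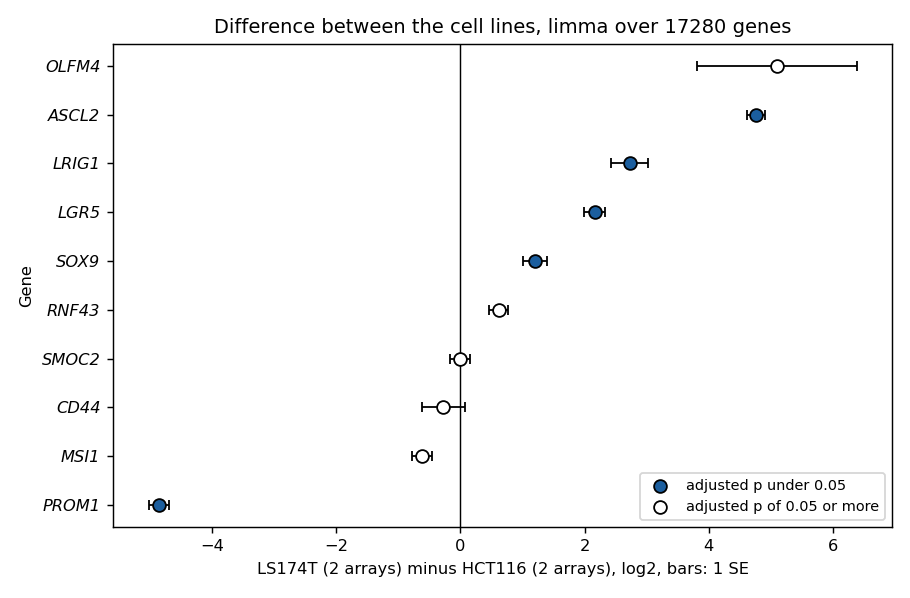
Difference between LS174T (2 arrays) and HCT116 (2 arrays) for each member on the log2 scale, with bars of 1 SE from limma; filled points passed an adjusted p of 0.05. ASCL2, LRIG1, LGR5 and SOX9 lie right of 0 and PROM1 left of it, and OLFM4 has the widest bar at 5.09 ± 1.29.

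Genes that share the crypt base with the members were described from lists. Like the members, these lists were chosen with earlier results of these data known. Their shares beside those of all genes are therefore descriptions and not tests. Of 18 measured other crypt base genes, 9 rose and 1 fell in LS174T-siVec against HCT116-Vec, or 55.6% beside 13.4% of all genes measured, with a median of 1.24 beside 0.01 over all genes. Among them were the insulin-like growth factor binding protein gene IGFBP4 at 4.77, the ephrin receptor gene EPHB3 at 4.34, the Wnt feedback gene AXIN2 at 3.62, ETS2 at 3.53, CD24 at 3.21 and MYB at 2.91. SOX4 was the gene that fell, at -1.02. Of 9 measured genes of the R-spondin and Wnt receptor axis, LGR4 at 2.24, ZNRF3 at 2.03 and the Wnt receptor gene FZD5 at 1.25 rose and 0 fell, or 33.3% beside the same 13.4%. LGR4 is a close relative of LGR5, and ZNRF3 a relative of RNF43 with the same task. The secreted R-spondin genes RSPO2 and RSPO3 were under 6 on all arrays.

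The same lists held no changed gene within either pair, where 1.89% of genes in the HCT116 pair and 1.85% in the LS174T pair changed, so that a count of 0 in lists of this length lies near the background. In LS174T-siCDX1, 0 of 18 other crypt base genes changed, their median was -0.23, and 17 of 18 lay below 0 beside 51.2% of all measured genes. Each of these differences was under 2-fold, and the lowest were those of CD24 at -0.95 and IGFBP4 at -0.92. Some of those below 0 lay almost at it, such as PTPRO at -0.0003, CDK6 at -0.007 and TNFRSF19 at -0.01. The list was not compared with genes of like level. On the array labelled HCT116-CDX1 the median was 0.07, with 11 of 18 above 0. For the R-spondin and Wnt receptor axis the medians were 0.15 for HCT116 and -0.05 for LS174T, with 0 of 9 genes changed in each. Of 13 Notch genes, a pathway that keeps crypt progenitors undifferentiated, 0 changed in either pair; the Notch ligand gene JAG1 differed by -0.74 and -0.99 and the Notch target gene HES1 by -0.17 and -0.03 in the HCT116 and LS174T pairs.

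Reserve and revival stem cell genes, which mark slowly cycling or regenerating cells, moved in both directions. CLU, the clusterin gene that marks revival stem cells in the mouse, was at 9.999 on the array labelled HCT116-CDX1 and 11.17 on HCT116-Vec, and at 6.42 in LS174T-siCDX1 and 8.33 in LS174T-siVec. It fell by 1.17 and by 1.91, and like CD44 it was lower on both modified arrays. ALDH1A1, an aldehyde dehydrogenase used as a stem cell marker in colon, was at 12.95 in LS174T-siCDX1 and 11.79 in LS174T-siVec and rose by 1.15, and it was under 6 on both HCT116 arrays. The other measured genes of the list differed by less than 2-fold within the pairs.

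Among close relatives of the members, SOX8, a relative of SOX9, was the 1 of 9 measured genes that changed in the LS174T pair. Of all genes measured in that pair, 1.85% changed. SOX8 was at 7.24 in LS174T-siCDX1 and 5.54 in LS174T-siVec, at least 2.36-fold higher. Of the relatives of OLFM4, OLFM1 differed by 0.08 and OLFM2 by 0.07 in that pair, and OLFM3 was under 6. A further list held the ERBB receptors, which LRIG1 inhibits, and their ligands. Of 9 measured in the LS174T pair, EGFR rose by 1.22 and EGF fell by 1.46 in LS174T-siCDX1, beside the same 1.85%. For EGF this was at least 1.73-fold against a level of 6. In the HCT116 pair, where LRIG1 differed by 0.80, 0 of 8 changed, beside 1.89% of all genes measured, and the median was 0.35.

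Differentiation genes are given as the counterpart of the stem cell panel. KRT20 rose by 3.03 in the HCT116 pair. In LS174T it was at 5.45 in LS174T-siCDX1, under 6, and at 8.15 in LS174T-siVec, at least 4.43-fold lower in LS174T-siCDX1. As the gene the series examined, KRT20 is not independent evidence of its list. Of 13 absorptive genes measured in the HCT116 pair, 3 rose, which were KRT20, DPP4 at 1.41 and CDH17 at 1.31, and 0 fell, beside 1.89% of all genes changed. Of 11 measured in the LS174T pair, 2 fell, KRT20 and DPP4, a peptidase of the brush border, at -1.76, and 0 rose, beside 1.85% of all genes changed. Of 8 goblet genes 0 changed in the HCT116 pair, while the mucin gene MUC2 at -1.37 fell and SPINK4 at 1.31 rose in LS174T-siCDX1. In LS174T-siCDX1 the rise of OLFM4 thus stood beside lower KRT20 and DPP4 and also lower KRT8 and KRT19, which mark epithelial cells in general, while 8 of 9 measured members of the stem cell panel differed by less than 2-fold.

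The 3 genes whose levels over the 4 arrays, each centred on its own mean, lay nearest to OLFM4 among 17270 genes were BEX5, TM4SF4 and CALB1, at Euclidean distances of 2.19, 2.83 and 3.05 on the log2 scale. BEX5 was at 5.71 and 5.12 in HCT116-CDX1 by label and HCT116-Vec, and at 10.58 and 6.15 in LS174T-siCDX1 and LS174T-siVec. TM4SF4 was at 11.36 in LS174T-siCDX1 and 8.24 in LS174T-siVec, and CALB1, which encodes the calcium-binding protein calbindin, at 8.96 in LS174T-siCDX1 and 7.66 in LS174T-siVec. All 3 were highest in LS174T-siCDX1, as OLFM4 was, which follows from how they were picked. In the LS174T pair BEX5, TM4SF4 and CALB1 differed by 4.43, 3.12 and 1.29, beside 5.01 for OLFM4. With 4 arrays the likeness is a description.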

How the data were processed

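Total RNA was extracted with RNeasy and labelled with biotin from 2 µg, per the labels' protocols. The deposited values are log2 expression per probe set, which the authors made with RMA, per the submitters' processing notes; its version and the arrays it took together are not given in the sources used here. No further normalization was applied. The platform annotation named the probe sets: of 54675, 41097 had 1 gene, 1801 several and 11777 none, and symbols were updated through RefSeq genes of GRCh38.p14, with 0 changed. With a single array per sample the number of arrays, not a depth, limits precision.

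Differences of 2 arrays were described with the floor of 6 and the 2-fold threshold, with no p-value. limma 3.58.1 in R 4.3.3 was fitted over all genes whose brightest array was at least 6. Python 3.11.15 with pandas 2.3.3, numpy 2.4.6 and statsmodels 0.14.6 did the rest. Both steps were tested on simulated data. The members and lists were chosen with earlier results of these data known. Named genes were the members, CDX1 and KRT20, up to 6 changed genes per list and comparison, and the 3 nearest profiles of a member that changed within a pair; other genes named were chosen after their values were seen. Alternatives were other floors, thresholds, normalizations, probe set rules and limma settings.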

Additional observations from a re-analysis of the deposited data

How the results depend on the processing

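The counts of members that changed, 0 in the HCT116 pair, 1 in the LS174T pair and 5 between the vector arrays, were the same with no floor, quantile normalization, arrays set to one median, a loess trend over level taken out (span 0.3), probe sets of a gene averaged and a threshold of 3-fold; a floor of 7 gave 0, 1 and 4. At 1.5-fold the counts were 3, 2 and 8. Without probe sets ending in _x_at or _s_at they were 0, 0 and 2, because OLFM4, PROM1 and SOX9 have no other probe set and LRIG1 has none left either. With levels under 6 set to 6, added after seeing the data, they were 0, 1 and 4, and OLFM4 between the vector arrays was at 0.65. Of 265 values of single members under these alternatives, 257 kept their side of the threshold, 7 passed the lower threshold of 1.5-fold and 1 was that of OLFM4. Of differences under 2-fold, 4 turned in sign: RNF43 in the HCT116 pair, at -0.01, was at 0.05 after quantile normalization and 0.07 with the loess trend taken out, and with probe sets averaged LRIG1 in the LS174T pair was at -0.12 and not 0.27, and SMOC2 between the vector arrays at 0.04 and not -0.10. Of all measured genes, 319, 312 and 2278 changed in the HCT116 pair, the LS174T pair and between the vector arrays, against 1603, 838 and 4517 at 1.5-fold and 69, 129 and 1114 at 3-fold.

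In the limma test between the lines 5 members passed. After quantile normalization 8 did, with OLFM4 at limma adjusted p = 0.042, RNF43 at 0.046 and MSI1 at 0.047. With no CDX1 label term or with an intensity trend 7 did, but not the same 7. With no label term the added members were RNF43 and MSI1, at limma adjusted p = 0.032 and 0.029. With the trend they were OLFM4 and MSI1, at limma adjusted p = 0.049 and 0.035. Leaving out each array in turn, with the line as the only term, gave 5 to 6 members and 1624 to 3317 genes, against 2782 genes with all arrays; ASCL2, LGR5, LRIG1 and PROM1 passed in each of these fits. The CDX1 label term called 0 members in every fit that held it. The rise of OLFM4 rests on 1 probe set and 2 arrays, and whether it would return in other cultures was not tested. The arrays are paired by line, and the CDX1 label term above, fitted with the line as the other term, compares the arrays within the lines. Each line gave a single pair, and the modifications of the pairs are opposite by label, so neither modification was repeated.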
